A study of Mus musculus with 16 samples.

Results

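The genes described are 41 genes of DNA replication, chosen by name: origin licensing factors, helicase activators, polymerases, the sliding clamp and its loader, enzymes of nucleotide supply, chromatin assembly factors and regulators of S-phase entry. Each gene was read from the probe set mapped to it alone with the highest mean log2 level over 16 arrays. Such a probe set was found for 40 of the 41 genes (not for Chaf1a, a subunit of the chromatin assembly factor CAF-1, not analysed here), and all 40 were among the 14286 genes tested, of 18194 with a probe set of their own. The rule that picks them uses names and no measured value, though the list was drawn up with earlier results of these data known.

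The arrays measured sorted basal cells of the interfollicular epidermis (IFE, the epidermis between hair follicles) of mouse tail skin, and sorted bulge and outer root sheath cells, the follicle's stem cell region. The IFE groups had the genotype K14CREER/Rosa-SmoM2-YFP: the keratin 14 promoter drives a Cre that tamoxifen activates to switch on SmoM2, an activated form of the hedgehog signal transducer Smoothened that gives rise to basal cell carcinoma. They were control cells of untreated littermates (n = 3) and SmoM2-positive cells after tamoxifen, with 1 array at 3 days, 3 arrays at 1 week, 3 at 4 weeks and 2 at 10 weeks. A further group also had floxed β-catenin alleles (b-cat flox/flox), deleted by the same Cre, and was taken at 4 weeks (n = 2). Bulge cells came from K19CREERT2/Rosa-SmoM2-YFP mice, with 1 array at 4 weeks after tamoxifen and 1 labelled as untreated. All mice were of mixed strain background, and no age is used here. Control mice carried the same Cre and SmoM2 alleles but had no tamoxifen, so that SmoM2 cannot be told apart from tamoxifen, from time and from the sort of labelled cells, and no group lost β-catenin without SmoM2.

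Replication starts from origins that are licensed in G1, when the origin recognition complex, Cdc6 and Cdt1 load the Mcm2 to Mcm7 helicase. Cdc7 kinase, Mcm10, Cdc45 and GINS then activate the helicase, primase and the polymerases copy the strands, and the clamp Pcna, loaded by replication factor C, holds the polymerases on DNA. E2F transcription factors, released from the retinoblastoma protein as cyclin E kinase activity rises, induce many of these genes together. In the epidermis it is the basal layer that divides, and these transcripts are commonly read as a sign of cells in cycle. In sorted bulk samples, fewer cycling cells and less of these transcripts per cell cannot be told apart.

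Promoters of 35 of the 41 genes were matched in RefSeq (GRCm38.p6; 250 bases before to 50 bases after the transcription start). An E2F site, searched for as TTTCCCGC, TTTGGCGC, TTTCGCGC or TTTGCCGC on both strands with overlaps allowed, was present in 13 of the 35 (37.1%), against 704 of all 27025 genes with promoters of that length (2.61%). The 13 genes were Cdc6, Cdt1, Lig1, Mcm3, Mcm5, Mcm6, Mcm7, Orc1, Pola1, Pold1, Pole2, Rfc3 and Uhrf1, and 7 of them were among the 9 licensing genes matched. The CCAAT box, on either strand, was present in 19 of the 35 (54.3%, against 41.1% of all genes), and TTTGAA or TTCGAA, a letter match to the CHR element of cell cycle genes, in 7 (20.0%, against 21.7%). The promoters below are 1 for each of the 4 roles in which any was found, that with the most E2F sites (Pola1 tied with Pold1 and Pole2 and comes first by name), shown to give E2F sites in their context, though most of the 35 promoters had none. They are given 5′ to 3′ on the strand of the gene, with E2F sites in capitals. They lie at chr1:128359656-128359955 (Mcm6, minus strand), chr5:151651159-151651458 (Rfc3, minus strand), chrX:93632106-93632405 (Pola1, minus strand) and chr17:56304063-56304362 (Uhrf1, plus strand).
Mcm6: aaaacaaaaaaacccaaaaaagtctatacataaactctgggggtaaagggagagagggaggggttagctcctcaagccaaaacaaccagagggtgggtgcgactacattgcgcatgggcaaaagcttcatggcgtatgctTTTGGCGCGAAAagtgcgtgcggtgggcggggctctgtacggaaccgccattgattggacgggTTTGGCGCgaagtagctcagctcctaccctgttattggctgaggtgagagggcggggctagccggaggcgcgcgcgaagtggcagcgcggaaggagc
Rfc3: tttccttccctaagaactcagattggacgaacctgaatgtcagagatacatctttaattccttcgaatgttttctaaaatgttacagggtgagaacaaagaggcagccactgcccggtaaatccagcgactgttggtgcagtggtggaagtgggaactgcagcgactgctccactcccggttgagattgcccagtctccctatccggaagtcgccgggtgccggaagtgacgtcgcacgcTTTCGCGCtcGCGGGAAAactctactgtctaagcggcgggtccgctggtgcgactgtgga
Pola1: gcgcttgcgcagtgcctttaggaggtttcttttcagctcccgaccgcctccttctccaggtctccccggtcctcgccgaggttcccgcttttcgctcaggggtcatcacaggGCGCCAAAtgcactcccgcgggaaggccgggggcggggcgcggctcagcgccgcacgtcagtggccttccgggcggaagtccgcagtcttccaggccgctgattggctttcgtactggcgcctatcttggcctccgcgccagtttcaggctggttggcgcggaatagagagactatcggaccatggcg
Uhrf1: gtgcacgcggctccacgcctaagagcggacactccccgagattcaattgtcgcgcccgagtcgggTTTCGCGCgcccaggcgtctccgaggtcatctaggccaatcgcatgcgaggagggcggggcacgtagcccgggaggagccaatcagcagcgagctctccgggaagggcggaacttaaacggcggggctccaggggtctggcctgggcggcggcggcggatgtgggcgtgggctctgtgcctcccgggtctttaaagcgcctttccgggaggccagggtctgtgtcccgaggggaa

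The Mcm6 promoter, of a subunit of the helicase, held 3 sites, a pair of them on opposite strands and overlapping in part, which begin between positions -110 and -47 from the start. Rfc3, a clamp loader subunit, held 2, and Pola1, the catalytic subunit of polymerase alpha, and Uhrf1, which guides DNA methylation to newly copied strands, held 1 each. These are letter matches in one window, and no binding was measured.

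The arrays carried differences other than the groups, and these bear on every result below. In every sample all 10 basal epidermal markers were past the array's 40th percentile, and so were 9 to 11 of 11 suprabasal markers. Gli1, a direct hedgehog target, had log2 levels of 8.50 to 10.16 at 1 week, 9.95 to 10.83 at 4 weeks and 9.70 to 9.86 at 10 weeks, against 5.30 to 5.73 in IFE controls. The array labelled bulge control had a Gli1 level of 9.89, near the 9.96 of bulge SmoM2. Its source label names SmoM2-positive cells, while its title gives it as untreated. What its Gli1 level reflects was not tested. Of the other hedgehog targets, Ptch1 (12.57, against 12.78 in bulge SmoM2) and Gli2 (10.97, against 10.83) were near as well. Hhip was not (7.67, against 10.64 in bulge SmoM2 and 5.09 to 7.12 in IFE controls). Cd34, a bulge marker, had levels of 6.83 in bulge SmoM2 and 9.72 in the labelled bulge control, and of 3.65 to 5.63 in the IFE arrays. Ctnnb1, the floxed gene, had levels of 12.76 and 12.93 with β-catenin loss, against 13.65, 13.21 and 13.26 with SmoM2 alone at 4 weeks; whether its probe set lies in the deleted exons was not checked. Arrays numbered 1 of control, 1 week and 4 weeks had a Gapdh 3′ minus 5′ control signal of 1.88 to 2.15 log2 units, against -0.06 to 0.56 in the other 13 arrays. The 0.56 was that of 4-week replicate 2, whose Actb 3′ minus 5′ signal was 1.54. The next highest was bulge SmoM2, with 0.34 for Gapdh and 1.08 for Actb. The arrays numbered 2 of those groups also stood apart by a lower upper quartile of the log2 levels (7.50, against 7.67 to 7.78 in the other arrays). The mean log2 level of 3 Y-linked genes was 3.41, 8.18 and 3.43 in control, 8.26, 3.34 and 7.38 at 1 week, and 3.39 and 6.91 with β-catenin loss. At 4 weeks it was 8.41, 7.58 and 6.02, and at 10 weeks 8.10 and 8.15, so the sex of the mice was not even between the groups.

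Most of the variation in the replication genes followed these replicate numbers rather than the groups. Over the 9 arrays of control, 1 week and 4 weeks, replicate number held a median of 64.3% of a gene's sum of squares and group held 23.0%, with number above group in 34 of 40 genes. Over all genes tested these medians were 52.6% and 17.9%, and over 4 hedgehog targets 4.55% and 93.8%. Replicate 1 had the highest level of the 3 in 20 of 40 genes at 4 weeks, 32 at 1 week and 38 in control. Replicate 2 had the lowest in 40 of 40 genes at 4 weeks, in 38 at 1 week and in 35 in control.

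The replication genes moved together from array to array, as the mean over the 40 genes shows when each gene is first centred on its own mean over the 16 arrays. This mean was 0.61, -0.22 and 0.16 in the control arrays (0.19 ± 0.41, SD, n = 3), 0.24 at 3 days, 0.73, -0.10 and 0.45 at 1 week (0.36 ± 0.42, SD, n = 3), 0.22, -0.94 and 0.15 at 4 weeks (-0.19 ± 0.65, SD, n = 3), and -0.36 and -0.07 at 10 weeks (-0.22 ± 0.20, SD, n = 2). With β-catenin loss it was -1.02 and -0.18 (-0.60 ± 0.59, SD, n = 2). It was 0.12 in bulge SmoM2 and 0.21 in the labelled bulge control. The order of the group means thus ran, high to low, 1 week, 3 days, labelled bulge control, control, bulge SmoM2, 4 weeks, 10 weeks and β-catenin loss. Neighbouring groups with replicates differed by less than the larger of their SDs.

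**Figure D1:**
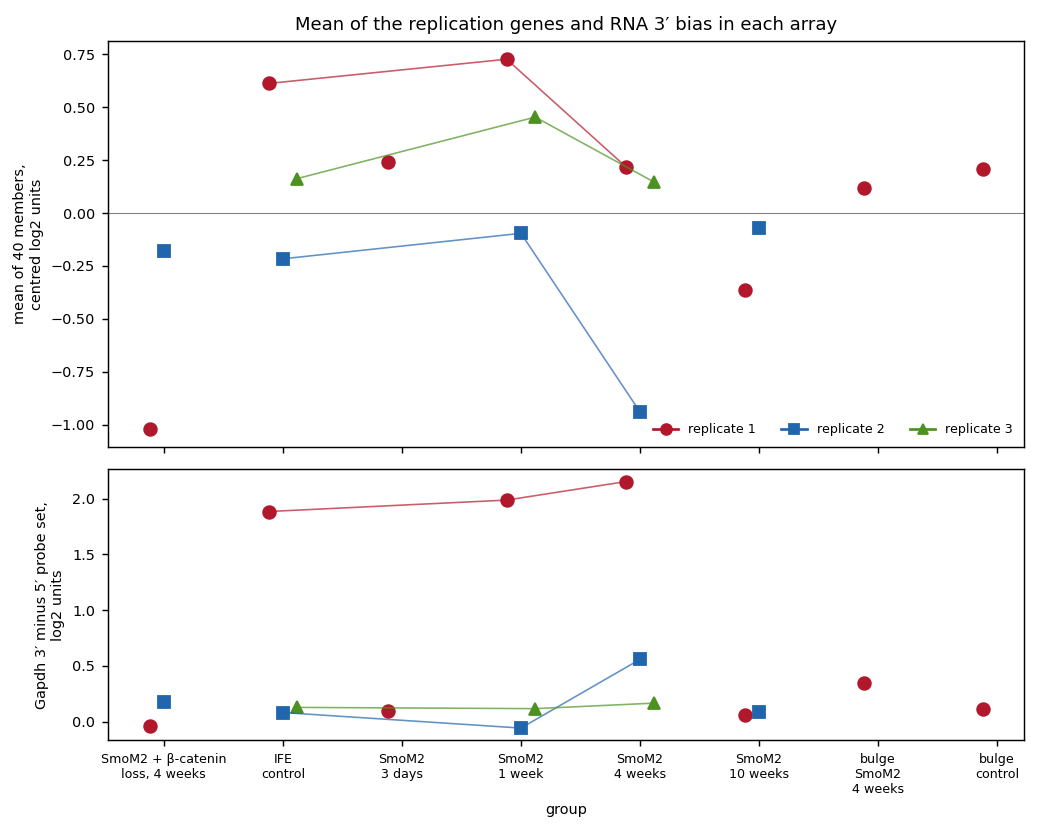
Each array's mean of the 40 replication genes, in centred log2 units (above), and its Gapdh 3′ minus 5′ control signal in log2 units (below), by group; colours and marks are replicate numbers, and lines join same-numbered arrays of control, 1 week and 4 weeks. The lowest means are those of β-catenin loss replicate 1 (-1.02) and 4-week replicate 2 (-0.94), and the 3 joined arrays numbered 1 stand apart below, at 1.88 to 2.15.

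Across the 16 arrays, each gene's Pearson correlation with the mean of the other replication genes had a median of 0.89. It was highest for Rrm1 (0.98), the large subunit of ribonucleotide reductase, and lowest for Fen1 (0.69), the flap nuclease of the lagging strand, Orc6 (0.55), of the origin recognition complex, and Rfc3 (0.21). The median over the 780 gene pairs was 0.79, and it was 0.78 over the 9 arrays of control, 1 week and 4 weeks once the mean of each replicate number was removed. The points share arrays, group differences and the replicate numbers, so these correlations are descriptions. Of 48 other probe sets of the same genes, the 36 that passed the filter correlated with the one used at a median of 0.779, and 5 of them correlated below 0. Rfc3's other probe set correlated at 0.925 and Gins2's at 0.953, while Cdc45's correlated at -0.67 and Orc1's at -0.38. Of genes described below, Cdc7's and Fen1's correlated at 0.35, and the Slbp probe set that passed the filter at -0.07. Tk1 and Orc6 had no other.

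**Figure D2:**
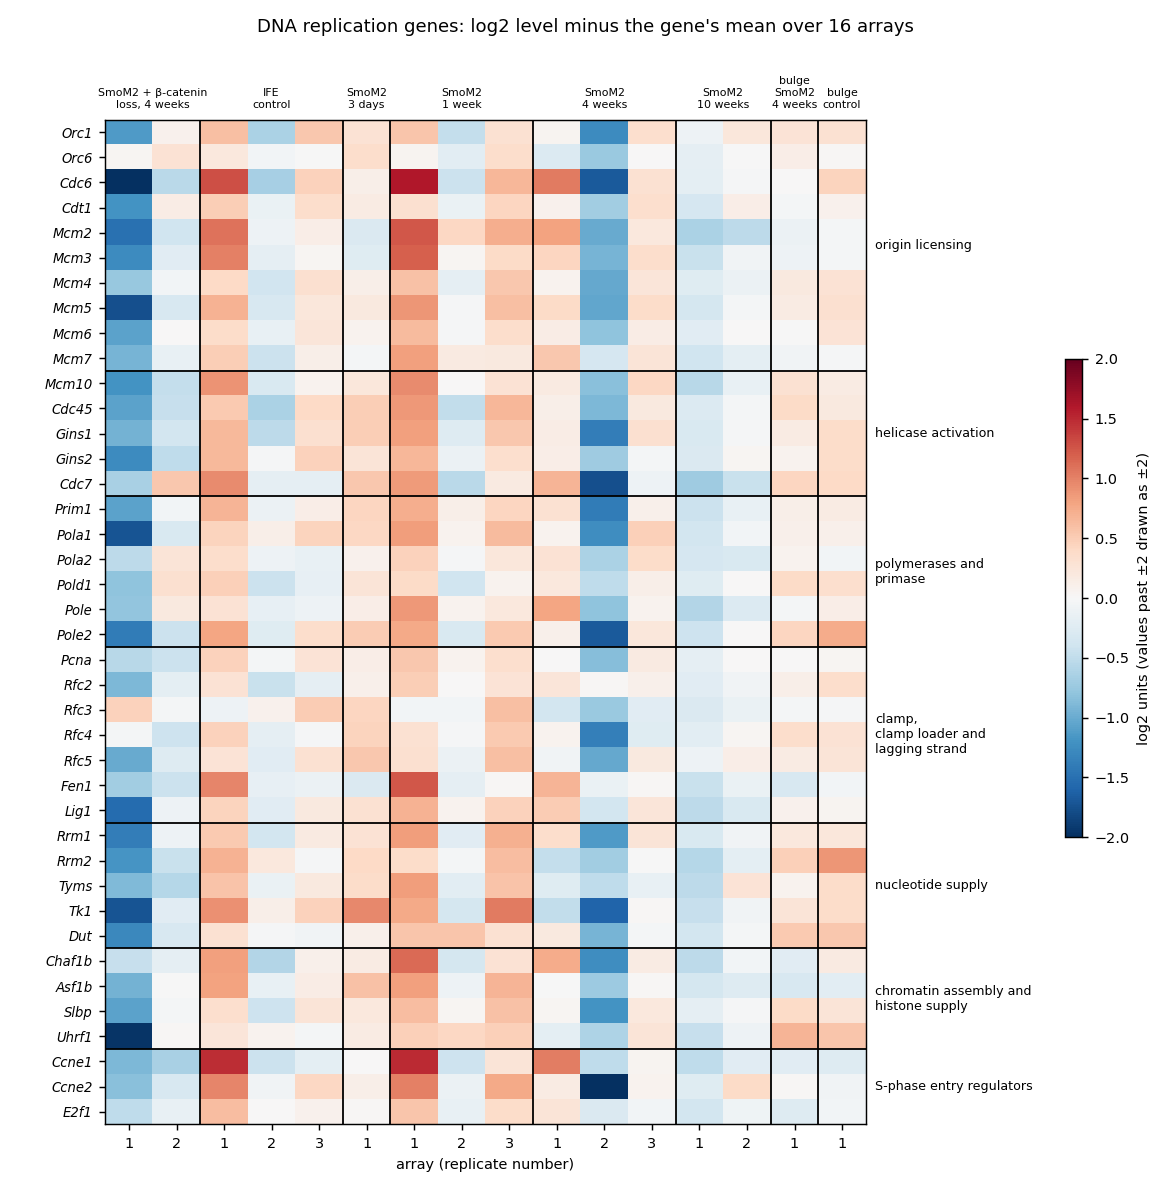
Log2 level of each of the 40 replication genes in each of the 16 arrays, as the difference from that gene's mean over the 16 arrays (red above, blue below, in log2 units), with genes in rows by role and arrays in columns by group. Most rows share a column pattern, with β-catenin loss replicate 1 lowest in 24 genes, 4-week replicate 2 in 16 and 1-week replicate 1 highest in 26.

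For each role, levels in every array are given for the gene whose probe set had the highest mean and for the one that varied most over the 16 arrays. Of the licensing genes, Mcm7, a helicase subunit, had log2 levels of 12.01, 11.09 and 11.63 in control, 11.48 at 3 days, 12.33, 11.69 and 11.72 at 1 week, 12.05, 11.18 and 11.77 at 4 weeks, and 11.11 and 11.32 at 10 weeks. With β-catenin loss Mcm7 was at 10.58 and 11.36, and it was at 11.44 in bulge SmoM2 and 11.49 in the labelled bulge control. All groups with replicates overlapped except that both 10-week arrays and both arrays with β-catenin loss lay below the 3 arrays at 1 week. Cdc6, which recruits the helicase to origins, varied most: 8.15, 6.20 and 7.33 in control, 6.99 at 3 days, 8.47, 6.44 and 7.53 at 1 week, 7.90, 5.18 and 7.17 at 4 weeks, and 6.67 and 6.84 at 10 weeks. Cdc6 was at 4.50 and 6.33 with β-catenin loss, and at 6.87 in bulge SmoM2 and 7.31 in the labelled bulge control, the lowest of all arrays being β-catenin loss replicate 1. Within control, 1 week and 4 weeks alike, replicate 1 was the highest and replicate 2 the lowest for both genes.

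Of the helicase activators, Gins2, a subunit of the GINS complex, was at 9.38, 8.72 and 9.19 in control, 8.99 at 3 days, 9.40, 8.62 and 9.07 at 1 week, 8.87, 8.03 and 8.70 at 4 weeks, and 8.45 and 8.78 at 10 weeks. With β-catenin loss Gins2 was at 7.48 and 8.23, both below every control array, and at 8.81 in bulge SmoM2 and 9.11 in the labelled bulge control. Cdc7, the kinase that triggers origin firing, varied most in this role, with 8.91, 7.79 and 7.79 in control, 8.51 at 3 days, 8.81, 7.43 and 8.15 at 1 week, 8.64, 6.21 and 7.86 at 4 weeks, and 7.26 and 7.52 at 10 weeks. Cdc7 was at 7.32 and 8.50 with β-catenin loss, within the range of the 4-week SmoM2 arrays, and at 8.40 in bulge SmoM2 and 8.36 in the labelled bulge control.

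Of the polymerase genes, Prim1, the catalytic subunit of primase, was at 10.48, 9.68 and 9.93 in control, 10.23 at 3 days, 10.52, 9.91 and 10.23 at 1 week, 10.10, 8.40 and 9.90 at 4 weeks, 9.37 and 9.64 at 10 weeks, and 8.73 and 9.74 with β-catenin loss, and at 9.91 in bulge SmoM2 and 9.96 in the labelled bulge control. Both 10-week arrays lay below all control arrays for Prim1. Pole2, the second subunit of polymerase epsilon, was at 8.93, 7.91 and 8.50 in control, 8.65 at 3 days, 8.91, 7.85 and 8.67 at 1 week, 8.25, 6.47 and 8.37 at 4 weeks, 7.73 and 8.15 at 10 weeks, and 6.75 and 7.72 with β-catenin loss, and at 8.57 in bulge SmoM2 and 8.88 in the labelled bulge control. Pole2 thus lay below every control array in both arrays with β-catenin loss, while the 4-week group was spread by its replicate 2.

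Pcna, the sliding clamp, was at 12.59, 12.09 and 12.41 in control, 12.27 at 3 days, 12.66, 12.21 and 12.47 at 1 week, 12.14, 11.27 and 12.32 at 4 weeks, 11.95 and 12.14 at 10 weeks, and 11.57 and 11.71 with β-catenin loss, and at 12.14 in bulge SmoM2 and 12.17 in the labelled bulge control. The β-catenin loss arrays lay below all control arrays for Pcna but not below the 4-week replicate 2. Lig1, which seals Okazaki fragments, was at 10.29, 9.63 and 10.05 in control, 10.15 at 3 days, 10.55, 9.92 and 10.31 at 1 week, 10.36, 9.47 and 10.09 at 4 weeks, 9.32 and 9.54 at 10 weeks, and 8.31 and 9.74 with β-catenin loss, and at 9.93 in bulge SmoM2 and 9.90 in the labelled bulge control. Rfc3 did not share this pattern: it was at 8.47, 8.64 and 9.07 in control, 9.0 at 3 days, 8.51, 8.52 and 9.17 at 1 week, 8.20, 7.82 and 8.33 at 4 weeks, 8.27 and 8.43 at 10 weeks, and 9.02 and 8.52 with β-catenin loss, and at 8.52 in bulge SmoM2 and 8.54 in the labelled bulge control. All 3 arrays at 4 weeks lay below all other IFE groups except the 10-week group for Rfc3.

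Of nucleotide supply, Rrm2, the small subunit of ribonucleotide reductase, was at 11.54, 11.04 and 10.81 in control, 11.23 at 3 days, 11.20, 10.80 and 11.46 at 1 week, 10.36, 10.13 and 10.82 at 4 weeks, 10.26 and 10.65 at 10 weeks, and 9.66 and 10.40 with β-catenin loss, and at 11.31 in bulge SmoM2 and 11.72 in the labelled bulge control. Tk1, the thymidine kinase of S phase, was at 10.30, 9.50 and 9.84 in control, 10.34 at 3 days, 10.14, 9.03 and 10.41 at 1 week, 8.89, 7.77 and 9.40 at 4 weeks, 8.92 and 9.31 at 10 weeks, and 7.65 and 9.16 with β-catenin loss, and at 9.63 in bulge SmoM2 and 9.75 in the labelled bulge control. For Rrm2 the labelled bulge control was the highest of the 16 arrays. Every Tk1 value at 4 and 10 weeks and with β-catenin loss lay below every control value. Tyms, which makes thymidylate, was dim, above the 40th percentile in 7 of 16 arrays. Its other probe sets correlated with the one used at -0.33 to 0.35. Where Tyms is named below as lower at 4 weeks or with β-catenin loss, that carries no weight of its own. 

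Of chromatin assembly and histone supply, Slbp, which binds histone mRNA, was at 10.68, 9.92 and 10.59 in control, 10.54 at 3 days, 10.94, 10.37 and 10.92 at 1 week, 10.38, 9.14 and 10.55 at 4 weeks, 10.16 and 10.30 at 10 weeks, and 9.26 and 10.29 with β-catenin loss, and at 10.72 in bulge SmoM2 and 10.59 in the labelled bulge control. Uhrf1 was at 9.97, 9.79 and 9.69 in control, 9.89 at 3 days, 10.21, 10.15 and 10.20 at 1 week, 9.54, 9.10 and 9.98 at 4 weeks, 9.26 and 9.63 at 10 weeks, and 7.76 and 9.75 with β-catenin loss, and at 10.41 in bulge SmoM2 and 10.28 in the labelled bulge control. Uhrf1 at 1 week was above every control and 4-week array. Ccne2, a cyclin E of S-phase entry, was at 9.10, 8.05 and 8.54 in control, 8.25 at 3 days, 9.14, 8.004 and 8.88 at 1 week, 8.28, 5.89 and 8.20 at 4 weeks, 7.88 and 8.51 at 10 weeks, and 7.29 and 7.80 with β-catenin loss, and at 8.15 in bulge SmoM2 and 8.06 in the labelled bulge control. Its lowest value was that of 4-week replicate 2.

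At 3 days and at 1 week the replication genes stayed close to control. In limma's fit over the 14 IFE arrays, 0 of 40 passed an adjusted p of 0.05 at 3 days or at 1 week, where 0.0% of all genes tested passed too. An unadjusted p under 0.05 was reached by 0 of 40 at 3 days (1.55% of all genes) and by 0 of 40 at 1 week (4.74%). At 3 days the median log2 difference was 0.09 (-0.66 to 0.47), with 13 of 40 below 0, against 46.9% of all genes, whose median was 0.02, and it rests on 1 array, whose spread is taken to equal that of the replicated groups. The lone array lay above all controls for Orc6, Rfc5 (a clamp loader subunit) and Tk1 (24.6% of all genes did) and below them for Fen1, Mcm2 and Mcm3, helicase subunits in the last 2 cases (19.4%). At 1 week the median was 0.19 (-0.07 to 0.42), with 5 of 40 below 0 against 50.9% of all genes, whose median was -0.00. The 1-week and control arrays did not overlap only for Uhrf1, which lay higher (4.63% of all genes did). Within replicate numbers, the 1-week array was above its same-numbered control in all 3 pairs for 24 of 40 genes (17.9% of all genes) and below in all 3 for 0 (20.1%), with medians of 0.13, 0.13 and 0.31 for numbers 1, 2 and 3. With replicate number as a block over these arrays and those at 4 weeks, 0 of 40 passed in limma (0.063% of all genes). Single arrays decided the size of the 1-week median: it was -0.03 when control replicate 2 was left out, 0.00 when 1-week replicate 1 was, and 0.40 when either control replicate 1 or 1-week replicate 2 was. Dermal fibroblast markers had a log2 summed signal of 12.32 to 13.07 at 1 week (4 to 5 of 8 past the 40th percentile), against 9.68 to 10.77 in control (4 to 6 of 8), and their part was not tested. Of these markers, only Dcn did not overlap between the groups, at 11.95 to 12.98 at 1 week, against 8.67 to 9.22 in control. Col1a2 was at 7.39, 7.78 and 6.29, against 6.11, 6.69 and 5.70, and overlapped as the others did.

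Between 1 week and 4 weeks most replication genes were lower at 4 weeks in every same-numbered pair. No replication gene passed in limma, with or without replicate number as a block. The limma fit gave 0 of 40 past the threshold (0.0% of all genes), with a lowest adjusted p of 0.997. An unadjusted p under 0.05 was reached by 6 of 40 (4.82% of all genes). They were Dut, which removes dUTP, Rfc3, Rfc4, another clamp loader subunit, Rrm2, Tk1 and the dim Tyms. The median difference was -0.56 (-1.22 to -0.07), with 40 of 40 below 0 (55.7% of all genes, whose median was -0.04). The direction of 40 genes that move together is not 40 observations. The 4-week arrays lay below all 1-week arrays for Dut, Rfc3 and Uhrf1 (2.11% of all genes). By role the median difference was -0.52 for licensing, -0.55 for helicase activation, -0.56 for polymerases, -0.54 for the clamp and its loader, -0.71 for nucleotide supply, -0.67 for chromatin assembly and -0.28 for S-phase entry.

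Within replicate numbers 1, 2 and 3 the median of the 4-week minus 1-week differences was -0.49, -0.86 and -0.29. The 4-week array was the lower in all 3 pairs for 33 of 40 genes (18.5% of all genes) and the higher in all 3 for 0 (14.2%). The exceptions were Orc1, Mcm7, Mcm10, Pola2, Pold1, Rfc2 and Fen1. Without the pair numbered 2, 34 of 40 were lower in both others (37.6%), and the unpaired median was -0.16 with 4-week replicate 2 left out. Of the 1-week arrays, leaving out replicate 2 gave -0.78 and replicate 1 gave -0.40. Tk1 differed by -1.25, -1.26 and -1.01 in the pairs, Ccne2 by -0.86, -2.11 and -0.68, and Rfc3 by -0.31, -0.70 and -0.84. With replicate number as a block over the 9 arrays, 0 of 40 passed (0.0% of all genes), and Gins2 and Tk1 had an adjusted p of 0.253 in limma. Suprabasal markers were lower at 4 weeks (9 to 11 of 11 above the 40th percentile, log2 summed signal 14.08 to 15.17) than at 1 week (11 of 11, 15.17 to 15.78), and their part in the result was not tested.

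**Figure D3:**
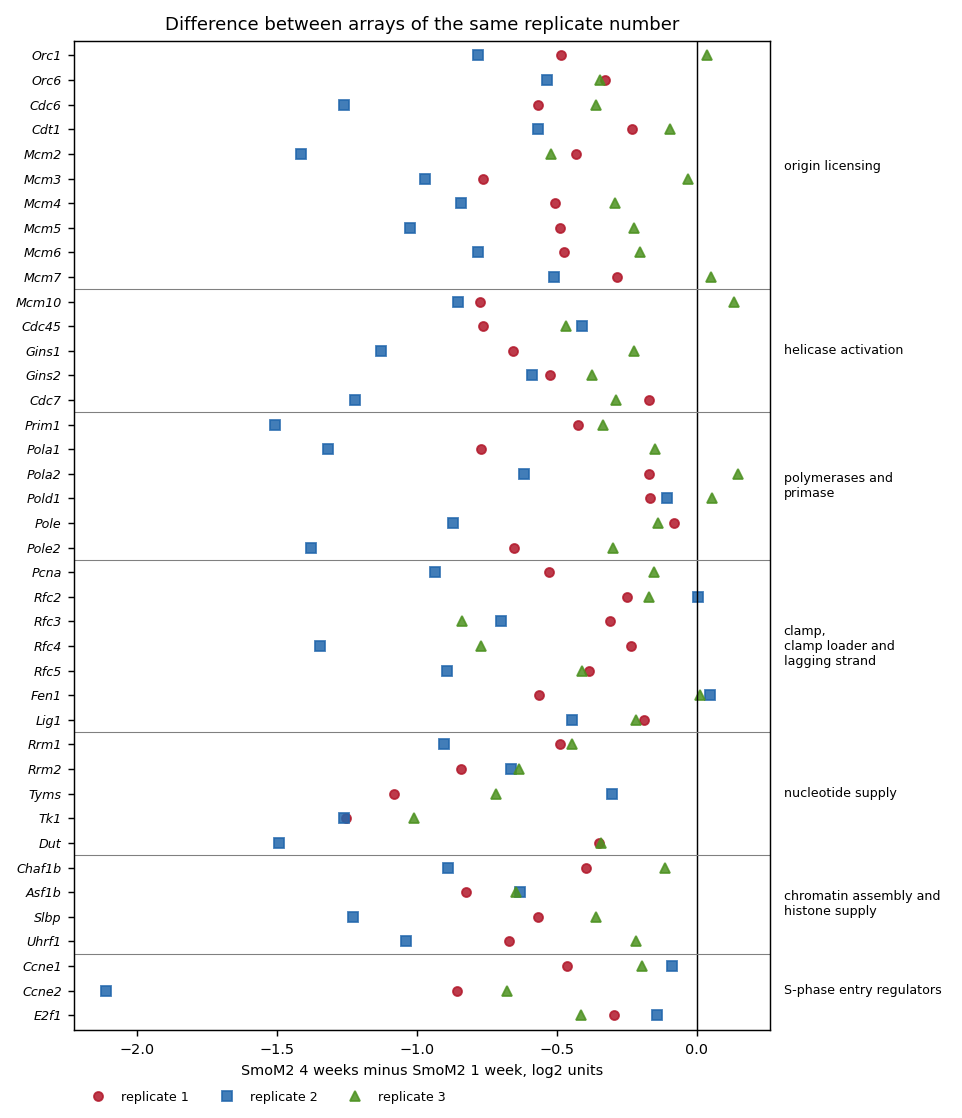
Difference in log2 level, 4 weeks minus 1 week, between arrays of the same replicate number for each of the 40 replication genes; points are the 3 pairs. In 33 genes all 3 points lie below 0, and the pair numbered 2 has the lowest median (-0.86).

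Against control, Tk1 and Gins2 were lower at 4 weeks in every same-numbered pair, and they were the 2 that passed in the fit with replicate number as a block over the 9 paired arrays. The unblocked limma fit gave 0 of 40 past the threshold (3.24% of all genes), with the lowest adjusted p for Rfc3 (-0.61 ± 0.25 SE, adjusted p = 0.263), and 3 of 40 at an unadjusted p under 0.05, namely Rfc3, Rrm2 and Tk1 (15.1% of all genes). With the block over the 9 control, 1-week and 4-week arrays, a fit added after the data were seen, 2 of 40 passed (6.68% of all genes). Gins2 fell by 0.57 ± 0.11 SE (limma, adjusted p = 0.0394), with pair differences of -0.51, -0.69 and -0.49. Tk1 fell by 1.19 ± 0.25 SE (limma, adjusted p = 0.0407), with pair differences of -1.41, -1.73 and -0.43. Neither passed with the block over all 14 IFE arrays, where the adjusted p was 0.345 for Gins2 and 0.204 for Tk1 and 0 of 40 genes passed (873 of all 14286). The share of replication genes that passed with the 9-array block was near that of all genes.

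The median over the 40 genes was -0.36 at 4 weeks against control (-1.19 to 0.23), with 37 below 0 (55.7% of all genes, whose median was -0.05); Mcm7, Pole, the catalytic subunit of polymerase epsilon, and Rfc2 lay above 0. In the pairs numbered 1, 2 and 3 the medians were -0.36, -0.69 and 0.00, and 20 of 40 genes were lower in all 3 pairs (27.6% of all genes), while Mcm7 alone was higher in all 3 (19.9% of all genes). Leaving out 4-week replicate 2 brought the unpaired median to 0.04, and leaving out replicates 1 or 3 of that group to -0.54 or -0.56. For the controls, it was -0.21 with replicate 1 left out and -0.59 with replicate 2 left out. The 4-week arrays lay below all controls for Rfc3, Tk1 and the dim Tyms (8.12% of all genes). For Tyms the highest 4-week level was 4.59 and the lowest control level 4.60. Other gene lists moved with this comparison, by median differences of 1.67 for 8 bulge and outer root sheath markers (4 rose in limma), -0.93 for 11 suprabasal markers (1 fell), -1.54 for 8 melanocyte markers and 0.65 for 13 immediate-early and dissociation stress genes (11 above 0; 0 passed in either of these). The log2 summed signal at 4 weeks and in control was 13.49 to 14.53 and 11.39 to 12.16 for the bulge list, 14.08 to 15.17 and 15.49 to 15.95 for the suprabasal list, 9.75 to 11.16 and 10.57 to 12.83 for the melanocyte list, and 14.39 to 15.65 and 14.47 to 14.94 for the stress list. The 8 dermal fibroblast markers had a median of 0.17 (1 rose in limma), at 11.06 to 12.66 against 9.68 to 10.77. The 5 sebaceous gland markers had -0.49 (0 passed), at 12.36 to 13.89 against 13.49 to 14.16. The 10 basal markers had -0.43 (0 passed), at 15.54 to 15.73 against 15.99 to 16.16. The part of all these lists in the result was not tested.

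At 10 weeks the levels were near those at 4 weeks. Against 4 weeks 0 of 40 passed (0.0% of all genes; 0 at an unadjusted p under 0.05, against 6.25%), and the median difference was 0.01 (-0.58 to 0.74) with 19 of 40 below 0 (53.7% of all genes). Without 1 array it ran between -0.33, without 4-week replicate 2, and 0.21. Fen1 and Rfc2 lay below all 4-week arrays (13.5% of all genes). Against control, 0 of 40 passed (0.7% of all genes; 0 at an unadjusted p under 0.05, against 10.6%), and the lowest adjusted p was 0.494, for Rrm2 (-0.67). The median was -0.37 (-0.95 to -0.04) with 40 of 40 below 0 (57.2% of all genes, whose median was -0.06), and 13 genes lay below all controls (20.5%), among them Cdc7, Lig1, Mcm2, Prim1, Rrm2 and Tk1. With control replicate 1 left out the median was -0.16, with control replicate 2 left out -0.61, and with 10-week replicate 2 left out -0.57. Replicate 1 at 10 weeks lay below replicate 2 in 40 of 40 genes, with a median difference of -0.27.

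Against 1 week, 0 of 40 passed at 10 weeks (0.021% of all genes), with the lowest adjusted p for Mcm2 (-1.37 ± 0.52 SE, adjusted p = 0.751), and Mcm2 and Rrm2 had an unadjusted p under 0.05 (5.96% of all genes). Mcm2 was at 10.20, 9.01 and 9.24 in control, 8.82 at 3 days, 10.35, 9.52 and 9.84 at 1 week, 9.92, 8.10 and 9.31 at 4 weeks, and 8.48 and 8.59 at 10 weeks. It was at 7.61 and 8.71 with β-catenin loss, and at 8.99 in bulge SmoM2 and 9.07 in the labelled bulge control. The 10-week and 1-week values did not overlap. The median over the 40 was -0.58 (-1.37 to -0.06), all 40 below 0 (56.9% of all genes), and 18 lay below all 1-week arrays (17.2%). With array weights Mcm2 fell by 1.41 (limma, adjusted p = 0.0394). Titles and descriptions number the 10-week arrays differently, and same-numbered arrays of the 1-week and 10-week groups are not treated as pairs.

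With β-catenin loss the mean of the replication genes was the lowest of all groups, and this rested on 1 of the 2 arrays. That array, replicate 1, had a Gli1 level of 7.22, against 9.56 in replicate 2 and 9.95 to 10.83 with SmoM2 alone at 4 weeks. The mean log2 level of 4 hedgehog targets was 7.88 and 10.30 in replicates 1 and 2. It was 11.50, 11.55 and 10.60 with SmoM2 alone at 4 weeks and 6.78 to 7.43 in control. The part of these hedgehog target levels was not tested. Against SmoM2 alone at 4 weeks, 0 of 40 passed (2.23% of all genes), with the lowest adjusted p for Rfc2, another clamp loader subunit (-0.67 ± 0.27 SE, adjusted p = 0.220 in limma), and 3 had an unadjusted p under 0.05, Lig1, Rfc2 and Rfc3 (17.2% of all genes). The median difference was -0.39 (-1.34 to 0.66) with 35 of 40 below 0 (58.4% of all genes, whose median was -0.09). It was -0.86 from β-catenin loss replicate 1 alone and -0.01 from replicate 2 alone. Among the SmoM2 arrays, it was -0.74 with replicate 2 left out, and -0.21 and -0.22 with replicates 1 and 3 left out. β-catenin loss replicate 1 lay below replicate 2 in 38 of 40 genes, with a median difference of -0.86.

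The genes above 0 were Ccne2 (0.09), Rfc4 (0.28), Cdc7 (0.34), Orc6 (0.49) and Rfc3 (0.66). Orc6 and Rfc3 lay above all 4-week arrays (11.1% of all genes). Ccne1, the other cyclin E, Fen1, Rfc2 and the dim Tyms lay below them (17.6%). Orc6 was at 8.60 and 8.85 with β-catenin loss, against 8.29, 7.82 and 8.57 with SmoM2 alone. By role the medians were -0.56 for licensing, -0.57 for helicase activation, -0.27 for polymerases, -0.34 for the clamp and its loader, -0.42 for nucleotide supply, -0.25 for chromatin assembly and -0.30 for S-phase entry. Without β-catenin loss replicate 2, Uhrf1 fell by 1.78 (limma, adjusted p = 0.0284), which is the difference of its lone value of 7.76, while replicate 2 was at 9.75, inside the 4-week range.

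Against control, β-catenin loss with SmoM2 again gave 0 of 40 past the threshold (0.371% of all genes), while 12 of 40 had an unadjusted p under 0.05 (14.6% of all genes). The lowest adjusted p-values in limma were those of Gins2 (-1.24 ± 0.34 SE, adjusted p = 0.131) and Rrm2 (-1.10 ± 0.32 SE, adjusted p = 0.146). The median was -0.79 (-1.82 to 0.11) with 38 of 40 below 0 (60.9% of all genes, whose median was -0.12), and 17 genes lay below all controls (20.7%), among them Gins2, Mcm2, Mcm5, Pcna, Pole2, Rrm2 and Tk1. It was -1.19 from β-catenin loss replicate 1 alone and -0.37 from replicate 2 alone. The 4-week and control comparisons share the β-catenin loss arrays, so their values are not independent. Melanocyte markers had a log2 summed signal of 8.91 to 9.13 with β-catenin loss, against 9.75 to 11.16 with SmoM2 alone. In control it was 10.57 to 12.83. Past the 40th percentile were 4 to 5, 6 to 8 and 8 of 8 markers, in the same order. Other lists also did not overlap between β-catenin loss and SmoM2 alone. Sebaceous gland markers were at 14.225 to 14.432, against 12.36 to 13.89, and suprabasal markers at 15.22 to 15.23, against 14.08 to 15.17. Bulge and outer root sheath markers were at 12.63 to 12.90, against 13.49 to 14.53. Dermal fibroblast markers were at 8.74 to 10.79, against 11.06 to 12.66. Basal and leukocyte lists overlapped. The part of these lists was not tested.

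**Figure D4:**
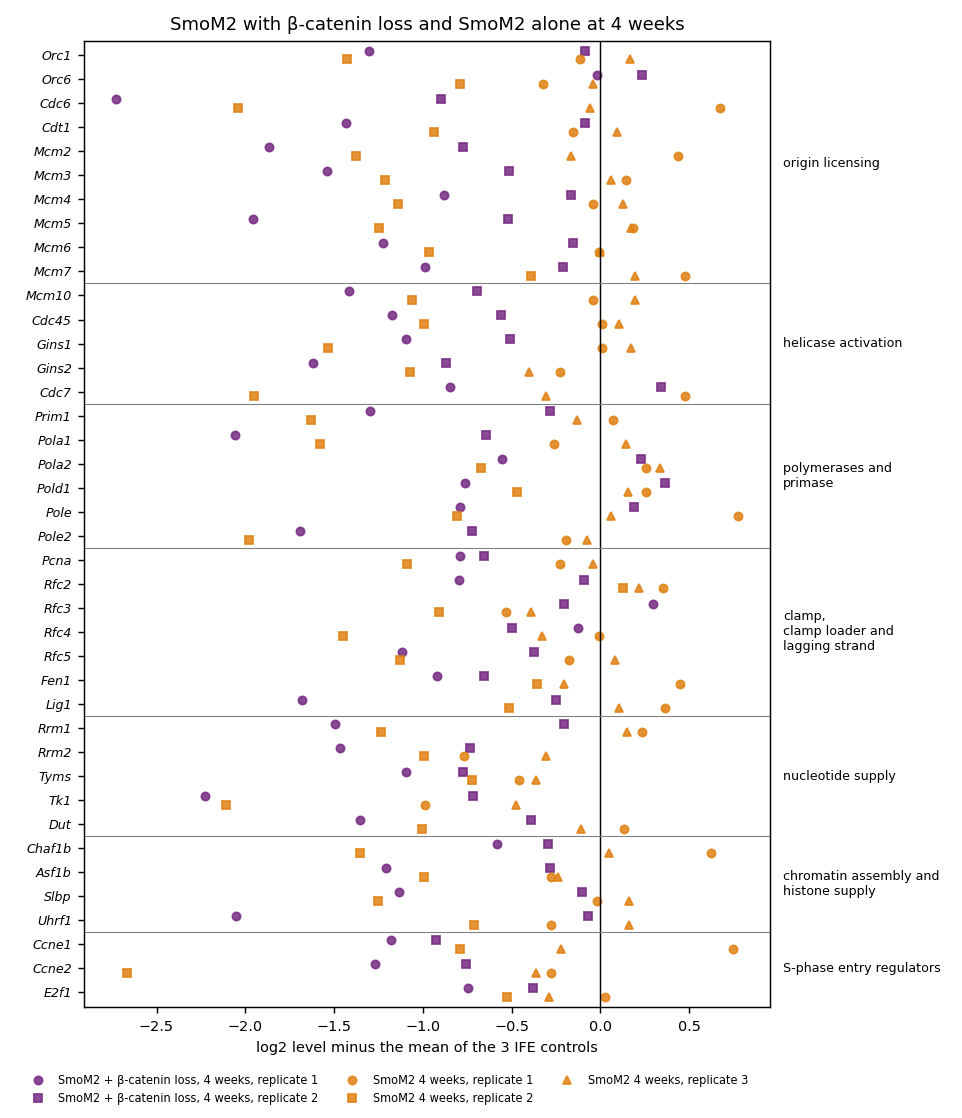
Log2 level of each of the 40 replication genes minus the mean of the 3 IFE controls, in the 2 arrays with β-catenin loss (purple) and the 3 arrays with SmoM2 alone at 4 weeks (orange); marks are replicate numbers and genes are in rows by role. β-catenin loss replicate 1 lies below its replicate 2 in 38 genes, and SmoM2 replicate 2 is the lowest of its group in 40.

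In the bulge, with 1 array per condition and no replicate check, SmoM2 minus the labelled bulge control had a median of -0.06 over the 40 genes (0.01 over all genes), between -0.44 for Cdc6 and 0.18 for Cdc45, a helicase activator. Of the 40, 28 were below 0 (47.9% of all genes). None differed by more than 1 log2 unit, against 4.35% of all genes higher and 2.59% lower by that much. Rrm2 (-0.41), Chaf1b, a subunit of CAF-1 (-0.41), Pole2 (-0.31) and Gins2 (-0.30) were among the lowest. Since the labelled bulge control carried Gli1, though not Hhip, at the level of bulge SmoM2, and since suprabasal markers had a log2 summed signal of 15.26 in bulge SmoM2 and 13.79 in the labelled bulge control, what SmoM2 did to these genes in the bulge cannot be read from this pair.

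Other genes of the cell cycle gave the following. Of 49 further replication genes, 12 E2F family and pocket protein genes and 34 mitosis genes, 0 passed in limma's unblocked fit in each of the 9 comparisons. At an unadjusted p under 0.05 the 4-week against 1-week comparison had 1 of 49, 0 of 12 and 9 of 34 (4.82% of all genes), and β-catenin loss against control had 7 of 49, 5 of 12 and 2 of 34 (14.6% of all genes). At 4 weeks against 1 week the median differences were -0.38 for the further replication genes, with the largest for Gmnn, the Cdt1 inhibitor geminin (-0.98), and Top2a, a topoisomerase (-0.93), and -1.02 for the mitosis genes, with the largest for the kinase Aurkb (-1.32) and Ect2, a regulator of cytokinesis (-1.27). In the E2F family they were largest for the repressor E2f7 (-1.05) and the pocket protein Rbl1 (-0.70). Of the mitosis genes 33 of 34 were lower in all 3 same-numbered pairs, and of the further replication genes 31 of 49, against 18.5% of all genes. With the block over 9 arrays, the mitosis genes Anln (-1.10, adjusted p = 0.0285), Birc5 (-0.95, adjusted p = 0.0394) and Nek2 (-0.59, adjusted p = 0.044) fell at 4 weeks against control in limma. These 3 of 34 stand beside 6.68% of all genes in that fit, and with the block over 14 arrays 0 of 34 passed.

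The proliferation marker Mki67 was at 11.54, 9.91 and 11.38 at 4 weeks, 9.34 and 11.66 with β-catenin loss, and 11.52, 10.98 and 11.36 in control, and passed in no comparison of the unblocked fit. Of 8 G1 cyclin and Myc genes, 1 passed at 4 weeks against control: Ccnd2, a D cyclin, fell (-1.17 ± 0.27 SE, limma adjusted p = 0.0408), with 10.56, 10.54 and 11.24 at 4 weeks, against 11.75, 12.15 and 11.97 in control. Ccnd1, another D cyclin, was at 11.14, 12.25 and 11.78 at 4 weeks, 9.65 and 11.57 with β-catenin loss, and 10.83, 11.84 and 11.94 in control. Mycn, a Myc family factor induced by hedgehog signalling, had a difference of 3.77 at 4 weeks against control (limma adjusted p = 0.0546; 0.039 with the block). The family did not move as a whole. Myc was at 6.95, 8.32 and 8.70 at 4 weeks, against 9.43, 9.85 and 9.75 in control. Mycl was at 7.10, 8.78 and 8.75, against 8.47, 10.65 and 10.64. Of 7 inhibitors of cyclin-dependent kinases, Cdkn2b rose at 4 weeks by 1.38 (limma, adjusted p = 0.0123) and at 10 weeks by 1.59 (limma, adjusted p = 0.0175) against control. With β-catenin loss Cdkn2b fell against its 4-week SmoM2 level (-1.997, limma adjusted p = 0.0095). Gli1 rose by 4.91 at 4 weeks (limma, adjusted p = 0.0059), beside a median of -0.36 for the replication genes.

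The genes most like the mean of the replication genes over the 16 arrays, outside the 41, were Chek1 (Pearson r = 0.991), Rad51ap1 (0.986), Gmnn (0.979), Melk (0.978), Plk4 (0.973), Tpx2 (0.972), Aurkb (0.971), Pla2g4a (0.971), Cse1l (0.968) and Fignl1 (0.967). The median r over the mitosis genes was 0.891, over the E2F family 0.731 and over the hedgehog targets -0.07, all over the same 16 arrays and thus sharing their replicate pattern. The replication genes with an E2F site in the promoter window had a median difference of -0.58 at 4 weeks against 1 week (13 genes), and those matched without one had -0.56 (21 genes). With β-catenin loss against SmoM2 alone the medians were -0.69 and -0.30, given with no test.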

How the data were processed

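Per the labels' protocols, RNA of sorted cells was amplified and labelled with an Affymetrix 3′ IVT express kit for mouse arrays. The authors deposited log2 values of 45101 probe sets in 16 arrays; the log2 scale was read from their range. The submitters' processing notes name R 2.14.0, while for normalization, background correction and the summary of probes to probe sets the method is not given in the sources used here. Precision is limited by the number of arrays. Nothing in the labels states that replicates are different mice or pools, so each p-value measures only the spread between samples, which may be technical.

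Groups came from the labels. Probe sets were named from the array annotation, and the probe set of highest mean stood for its gene. Tested were genes past the array's 40th percentile in 2 or more of 16 arrays. No further normalization was applied. Group means over the 14 IFE arrays were fitted with limma 3.58.1 in R 4.3.3 (moderated, 11.6 degrees of freedom; Benjamini-Hochberg over 14286 genes, threshold 0.05). Members, lists and tests were chosen with earlier results of these data known. Fits were tested on simulated data; figures and summaries used Python 3.11.15.

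Any of the 41 genes could be named. Values in every array were given per role for the gene of highest mean and the gene of largest SD, and for genes past the threshold in any fit. Of other lists, genes past the threshold or else the 2 of largest difference were named, with Mki67, Ccnd1, Ccnd2, Mycn and Gli1 and the 10 genes most like the mean. Cd34, Ctnnb1, Ptch1, Gli2, Hhip, Myc, Mycl, Dcn and Col1a2 were checked besides.

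Same-numbered arrays of control, 1 week and 4 weeks deviated together from their group means (correlation 0.343 to 0.696 in 9 pairs, against -0.532 to -0.002 in 18 pairs of different number), and the numbers were therefore used to pair these arrays. Same-numbered pairs with the 10-week and β-catenin loss arrays did not (-0.184 to 0.125 in 14 pairs), by the numbers of the titles; the descriptions number the 10-week arrays 2 and 3, not 1 and 2, and gave -0.184 to 0.178 in 13 pairs. Deviations from a group mean cancel out within the group, so correlations of same and of different number are not independent. Array quality also followed the numbers in control, 1 week and 4 weeks. What else same-numbered arrays shared was not tested. Alternatives were other filters, normalization, probe set choices, array weights, the block, the Gapdh 3′ minus 5′ signal or the Y-linked signal as a covariate, and leaving out arrays.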

Additional observations from a re-analysis of the deposited data

How the results depend on the processing

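The median differences of the replication genes moved by less than the SD between replicates (0.491 log2 units) under all 165 settings tried, and 159 of 165 counts of genes past the threshold stayed at 0. That SD is larger than the medians against control at 1, 4 and 10 weeks (0.19, -0.36 and -0.37). A median within it was therefore not shown to be stable. At 4 weeks against control, leaving out 1 array took the median as far as 0.04. The exceptions were 2 at 4 weeks against control with the replicate block over the 9 paired arrays (Gins2 and Tk1; 0 with either 14-array or description block), 1 at 10 weeks against 1 week with array weights (Mcm2; 400 of 14286 genes passed), and 1 with β-catenin loss against SmoM2 alone with the replicate block over titles (Rfc3, 0.82, limma adjusted p = 0.0383; 1347 of all genes passed) and over descriptions (Rfc3, 0.80, adjusted p = 0.0494; 1181 passed), where the numbers do not pair the arrays. In the other comparisons the block changed no call. Leaving out 1 array gave 0 to 1 past the threshold for β-catenin loss against SmoM2 alone and 0 to 1 against control, the 1 being Uhrf1 with β-catenin loss replicate 2 left out. The cause of these changes was not tested. With the Gapdh 3′ minus 5′ signal as a covariate, added after the data were seen, the medians were -0.64 at 4 weeks against 1 week, -0.42 at 4 weeks and -0.18 at 10 weeks against control, -0.35 at 10 weeks against 1 week, and -0.19 for β-catenin loss against SmoM2 alone. Without the 3 arrays numbered 2 they were -0.39, -0.20, -0.61, -0.83 and -0.74 in the same order. The median's sign differed in 3 settings at 3 days, 1 at 1 week, 1 at 4 weeks against control and 5 at 10 weeks against 4 weeks. The groups of 1 to 3 arrays, the array quality that differs by replicate number, and the single array at 3 days and in each bulge condition limit all of these values.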
